A study of Mus musculus with 6 samples.

Results

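The genes described here encode the subunits of the mitochondrial respiratory chain and ATP synthase that lie in the nuclear genome. They were chosen by symbol, as Nduf, Sdh, Uqcr, Cox4 to Cox8 and Atp5 genes with at least 10 counts summed over the 6 libraries. Of 85 genes whose symbols fit, 79 of the 23284 genes in the count tables passed that minimum, with 35 in complex I, 4 in complex II, 8 in complex III, 15 in complex IV and 17 in complex V. The symbols took in 3 genes that are not structural subunits, Cox4nb, Atp5s and Atp5sl. Ndufa4, which carries a complex I name and is counted there, is now assigned to complex IV, and Cox7a2l, counted in complex IV, is an assembly factor of supercomplexes. Subunits encoded by mitochondrial DNA were not analysed here.

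The libraries held total RNA of intestine (jejunum and ileum) from male mice aged 8 weeks that had fasted overnight and then fed again for 6 h. One group was SHP-KO, lacking the small heterodimer partner, an orphan nuclear receptor and transcriptional repressor encoded by Nr0b2, and the other was wild type (WT), with 3 libraries each. The labels give neither the allele nor the strain, and do not say that the libraries of a group were taken from different animals, so the p-values given measure spread among the libraries at hand, which could be technical. Reads assigned to genes numbered 7956528, 9289543 and 8862048 in the SHP-KO libraries, and 13511800, 11265437 and 13089989 in the WT libraries. Nr0b2 itself had 1, 0 and 0 counts in the SHP-KO libraries, against 31, 14 and 23 in the WT libraries.

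The respiratory chain passes electrons from NADH (complex I) and succinate (complex II) through coenzyme Q to complex III, and from there through cytochrome c to oxygen at complex IV. Complexes I, III and IV pump protons across the inner membrane, and ATP synthase (complex V) uses the gradient to make ATP. Absorptive enterocytes rely on it to power nutrient transport and lipoprotein assembly, and smooth muscle of the gut wall uses it too.

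Most respiratory chain genes were higher in SHP-KO intestine, by small amounts, and a smaller group was lower. Of 78 members with enough counts to test, 46 rose and 12 fell in SHP-KO libraries, and 20 did not pass the test (edgeR's quasi-likelihood test, Benjamini-Hochberg adjusted p under 0.05 over 12106 genes). Together 74.4% of members passed, where 70.6% of all genes tested did. The share that rose was 59.0%, against 35.2% of all genes, and the share that fell was 15.4%, against 35.4%. The members' median log2 fold change was 0.16, against -0.01 for all genes, and their median absolute log2 fold change was 0.20, against 0.42 for all genes. Only 5 members, or 6.41%, passed with a change of at least 1.5-fold, where 37.1% of all genes did, and none reached 2-fold. The CPM of the SHP-KO and WT libraries did not overlap for 58 members, or 74.4%, where 72.0% of all genes did not overlap. Without Cox4nb, Atp5s and Atp5sl, which are not structural subunits, 45 of 75 tested genes rose and 12 fell.

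The number of members called depended on the spread allowed between libraries. Within a group the median coefficient of variation of a member's CPM was 2.94% in SHP-KO libraries and 2.79% in WT libraries. With a biological coefficient of variation of 0.2 assumed in edgeR's exact test, 6 members rose (Ndufa5, Cox7a1, Ndufb10, Ndufb7, Atp5sl and Atp5k) and 1 fell (Cox7a2l), where 33.4% of all genes were called. Tested against a minimum change of 25%, 14 members rose and 3 fell (Cox7a2l, Uqcrc2 and Atp5c1), where 43.8% of all genes were called. DESeq2 called 44 members higher and 10 lower, where it called 62.2% of all genes, and limma-voom 46 and 12, where it called 70.1%.

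**Figure D1:**
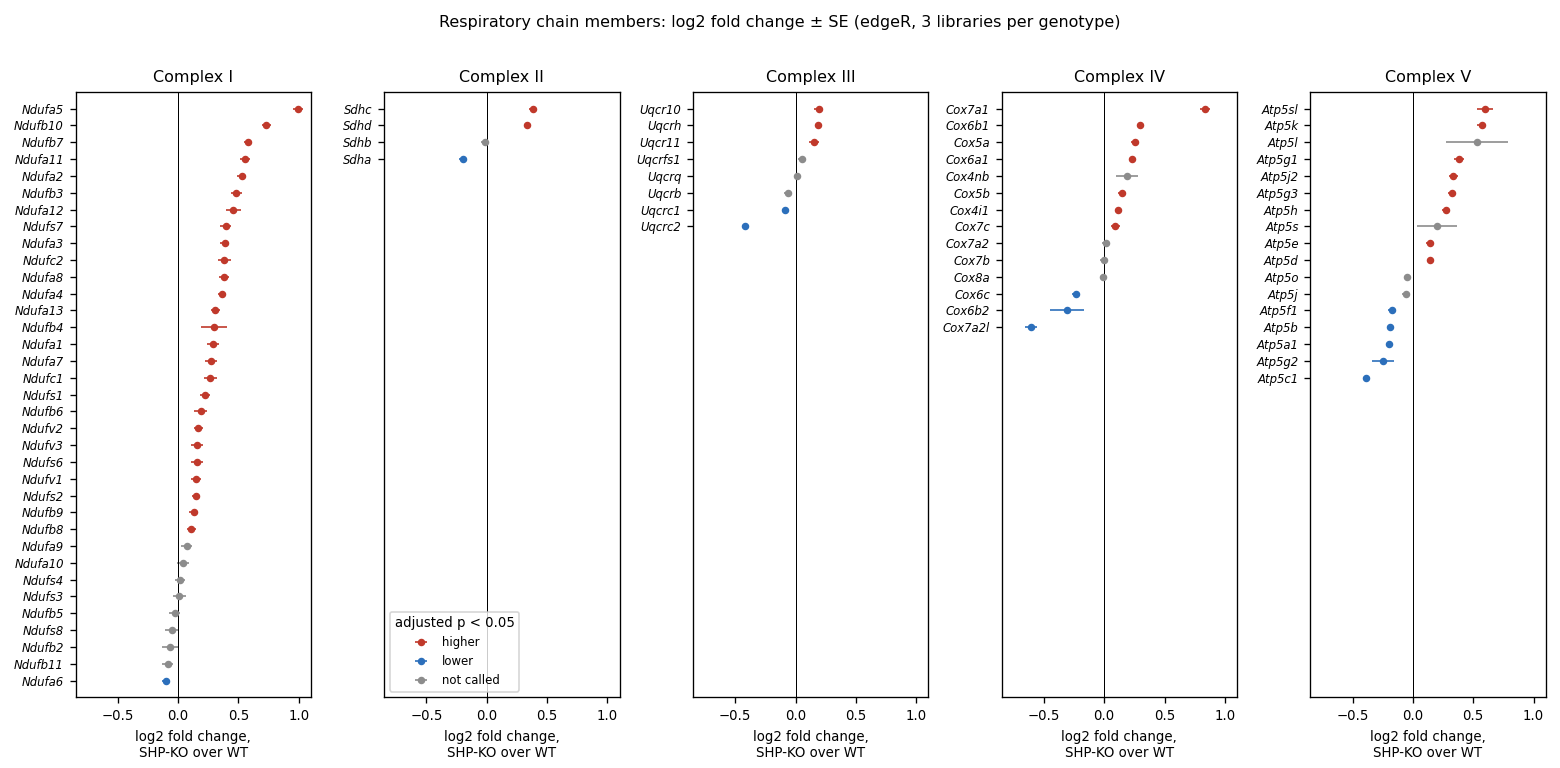
The log2 fold change of each of the 78 tested members, SHP-KO over WT, is plotted in a panel per complex as a point with its standard error, red where higher, blue where lower and grey where not called at adjusted p under 0.05. Complex I lies mostly to the right of 0, with Ndufa5 at 0.99, and complexes II to V have points on both sides, down to Cox7a2l at -0.60.

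The tissue makeup of the groups differed in markers of several cell types, and in bulk RNA fewer cells of a type and less RNA per cell cannot be told apart. The labels do not say how jejunum and ileum were combined. A difference between the groups in the share of each segment would coincide with genotype in these libraries, and was not tested. Of 14 smooth muscle markers tested, 13 were higher in SHP-KO libraries, and the summed level of the list was 1595 to 1627 CPM in SHP-KO libraries, against 481 to 487 CPM in WT libraries. Markers of enterocytes, the main absorptive cells of the tissue, summed to 113225 to 113775 CPM in SHP-KO libraries, against 103032 to 105538 CPM in WT libraries, with 8 of 15 higher and 5 lower. Among them Lct and Rbp2 rose (log2 fold changes 2.41 and 1.93), Epcam was not called (0.03) and Sis fell (-1.24). Lct and Rbp2 are also in the list of proximal markers that follows, so the sums of the lists overlap. Whether enterocyte RNA as such was higher was not tested. Markers of the proximal small intestine summed to 27222 to 27727 CPM in SHP-KO libraries, against 5132 to 5227 CPM in WT libraries, with 9 of 10 higher. Ileum markers summed to 6928 to 7154 CPM in SHP-KO libraries, against 21471 to 21776 CPM in WT libraries, with 7 of 11 lower and 4 higher. B cell markers were lower for 10 of 10, summing to 1.49 to 2.55 CPM in SHP-KO libraries, against 90.3 to 98.1 CPM in WT libraries. Cell cycle genes were lower for 11 of 12 (82.3 to 91.7 CPM in SHP-KO, against 194 to 196 CPM in WT), and crypt and stem cell genes for 6 of 8 (77.9 to 81.9 CPM in SHP-KO, against 115 to 126 CPM in WT). Goblet cell markers were higher for 6 of 6 (7381 to 7506 CPM in SHP-KO, against 2578 to 2656 CPM in WT), and Paneth cell markers lower for 4 of 6 tested (149.8 to 169 CPM in SHP-KO, against 214 to 224 CPM in WT). All 6 adipocyte markers tested were higher, summing to 174 to 187 CPM in SHP-KO libraries, against 128 to 131 CPM in WT libraries. Most of each sum was Cidec, with means of 138 CPM in SHP-KO libraries and 116 CPM in WT libraries. Fabp4 had means of 14.3 CPM in SHP-KO libraries and 1.86 CPM in WT libraries. Adipoq, a defining marker, had only 4, 7 and 7 counts in SHP-KO libraries, against 0, 2 and 2 in WT libraries. The part of these shifts in the respiratory chain values was not tested.

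Complex I, the NADH dehydrogenase, was the most one-sided of the 5 complexes. Its 35 members had 26 genes higher, 1 lower and 8 not called, and the median log2 fold change was 0.22. The share called was 77.1%, against 70.6% of all genes, and the share higher was 74.3%, against 35.2%. Ndufa5, an accessory subunit of the peripheral arm (mm9 chr6:24468666-24477687), had 133, 139 and 145 CPM in SHP-KO libraries, against 74.0, 68.4 and 67.1 CPM in WT libraries. All SHP-KO libraries lay far above all WT libraries, and the log2 fold change was 0.99 with a standard error of 0.045 (edgeR adjusted p = 3.4e-35), or 1.99-fold. Ndufb10, an accessory subunit of the membrane arm (mm9 chr17:24859012-24861333), had 195, 190.0 and 211 CPM in SHP-KO libraries, against 116, 125 and 118 CPM in WT libraries, a log2 fold change of 0.73 (SE 0.039; edgeR adjusted p = 3.6e-30). Ndufb7, also of the membrane arm, had 199.7, 197 and 194 CPM in SHP-KO libraries, against 132, 133 and 130.0 CPM in WT libraries, and its log2 fold change was 0.58 (SE 0.037; edgeR adjusted p = 6.9e-26). In each of these genes the groups were separated by a gap wider than the range within either.

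The window around the Ndufa5 start, from 250 bases before to 50 after it, is shown because Ndufa5 changed most. Here and in the windows that follow (RefSeq, GRCm38.p6), capitals mark matches on either strand to GCGC, any base, then TGCGC, the motif of nuclear respiratory factor 1 (NRF1), or to CCGGAAG, the motif of ETS factors such as GABPA. RefSeq lists another start for Ndufa5, whose overlapping window holds the same NRF1 match.
Ndufa5 chr6:24527477-24527776 (minus strand): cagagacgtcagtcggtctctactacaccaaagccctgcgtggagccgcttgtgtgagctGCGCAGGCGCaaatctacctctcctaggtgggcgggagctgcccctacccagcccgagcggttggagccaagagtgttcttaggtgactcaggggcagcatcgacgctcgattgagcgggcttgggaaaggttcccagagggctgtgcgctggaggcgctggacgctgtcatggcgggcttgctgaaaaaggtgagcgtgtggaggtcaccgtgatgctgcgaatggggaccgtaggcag

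Complex I was also counted by the roles of its subunits. The 7 nuclear core subunits, which carry the flavin and the iron-sulfur clusters, had 5 higher, 0 lower and 2 not called, with a median log2 fold change of 0.15, against 0.28 for the other 28 members, of which 21 rose and 1 fell. No test of that difference was made. In the NADH-oxidising N module 7 of 8 genes rose and Ndufs4 did not pass (log2 fold change 0.02, adjusted p = 0.71). In the coenzyme Q-binding Q module 4 of 7 rose and 1 fell. The share called was 87.5% in the N module and 71.4% in the Q module, against 70.6% of all genes. Among the core, Ndufs7, which holds the last iron-sulfur cluster before coenzyme Q, had 106, 112 and 108 CPM in SHP-KO libraries, against 84.4, 81.6 and 81.6 CPM in WT libraries, a log2 fold change of 0.39. Ndufs3 and Ndufs8 were the core genes not called, at 0.01 and -0.05.

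The complex I gene that fell was Ndufa6, an accessory subunit of the LYR family. It had 232, 234 and 245 CPM in SHP-KO libraries, against 251, 264 and 247 CPM in WT libraries, and the log2 fold change was -0.10 (SE 0.034; edgeR adjusted p = 0.0068). The groups did not overlap, but the lowest WT library lay just above the highest SHP-KO library. Per kilobase of exon, Ndufa4 and Ndufa6 had the highest WT levels of the complex I names, and Ndufa4 had 291, 293 and 293 CPM in SHP-KO libraries, against 225, 237 and 218 CPM in WT libraries, a log2 fold change of 0.37. Ndufb4 and Ndufb8 were called higher (0.30 and 0.11), but lost the call without WT replicate 3 (adjusted p 0.081 and 0.062) or SHP-KO replicate 1 (0.090 and 0.065), and Ndufb4 also without SHP-KO replicate 3 (0.061). Ndufb4 lost the call with DESeq2 too (adjusted p = 0.065). Ndufs6, higher by 0.16, lost it without WT replicate 3 (adjusted p = 0.11). Ndufb11, not called at -0.09, passed as lower without WT replicate 2, WT replicate 3 or SHP-KO replicate 3 (adjusted p 0.025, 0.012 and 0.025), and Ndufa9 passed as higher without SHP-KO replicate 3 (0.033). For Ndufb4 and Ndufb6, 33.4% and 28.2% of the 100-base windows of their transcripts also occur in transcripts of other genes, so their counts are uncertain. Ndufs5, a further accessory subunit, had 0 counts in every library and is outside the 79, since 95.1% of its 509 exon bases are shared with the gene BC002163 in the counting annotation, and reads over 2 genes were not assigned.

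Complex II, succinate dehydrogenase, which is also an enzyme of the citrate cycle, had 2 genes higher, 1 lower and 1 not called. The share called was 75%, against 70.6% of all genes. Both membrane anchors rose. Sdhc had 317, 300.5 and 317 CPM in SHP-KO libraries, against 239, 235 and 244 CPM in WT libraries, with a log2 fold change of 0.38 (SE 0.032; edgeR adjusted p = 1e-18). Sdhd had 386, 371 and 370.4 CPM in SHP-KO libraries, against 290.0, 308 and 295 CPM in WT libraries, with a log2 fold change of 0.34. The groups did not overlap in either anchor. The catalytic flavoprotein Sdha (mm9 chr13:74459703-74487688) fell, with 304, 306 and 314 CPM in SHP-KO libraries, against 345, 366 and 348 CPM in WT libraries, a log2 fold change of -0.20 (SE 0.031; edgeR adjusted p = 2.9e-08). The iron-sulfur subunit Sdhb did not pass, with 281, 271 and 274 CPM in SHP-KO libraries, against 282, 276 and 277 CPM in WT libraries (log2 fold change -0.02, adjusted p = 0.64). Per kilobase of exon, the ratio of Sdha to Sdhc, chosen after their values were seen, was 0.408 ± 0.013 in SHP-KO libraries and 0.609 ± 0.028 in WT libraries (SD, n = 3 each).

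The Sdha window is shown because, of the members that fell, it holds the most NRF1 matches, 3 in all.
Sdha chr13:74350191-74350490 (minus strand): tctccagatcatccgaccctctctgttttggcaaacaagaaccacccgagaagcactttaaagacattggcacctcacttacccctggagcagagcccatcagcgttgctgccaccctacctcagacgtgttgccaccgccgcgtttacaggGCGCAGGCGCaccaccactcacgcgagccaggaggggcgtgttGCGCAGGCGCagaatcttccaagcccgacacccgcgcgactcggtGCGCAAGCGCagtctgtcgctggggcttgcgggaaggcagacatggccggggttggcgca

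Complex III, the cytochrome bc1 complex, had 3 genes higher, 2 lower and 3 not called. The share called was 62.5%, against 70.6% of all genes. Its median log2 fold change was 0.03. That median was -0.0032 without scaling between libraries and -0.026 with no filter on low counts, so its sign depended on these settings. The small subunits Uqcr10, Uqcrh and Uqcr11 rose, by log2 fold changes of 0.19, 0.19 and 0.16. Uqcrh, the hinge protein near the cytochrome c docking site and the most abundant member of the complex per length, had 536, 515 and 522 CPM in SHP-KO libraries, against 480.2, 436 and 463 CPM in WT libraries. Uqcr10 had 183, 165 and 171 CPM in SHP-KO libraries, against 155, 151 and 148 CPM in WT libraries. In both, every SHP-KO library was above every WT library. Uqcrc2, one of the 2 large core proteins (mm9 chr7:127778703-127803037), fell, with 237, 241 and 233 CPM in SHP-KO libraries, against 311, 322 and 315 CPM in WT libraries. Its log2 fold change was -0.42 (SE 0.032; edgeR adjusted p = 8.7e-21), or 1.33-fold lower, and 12.1% of its exon bases are shared with Pdzd9 in the annotation. As 22.7% of its 100-base windows also occur in transcripts of other genes, its count is uncertain in part. The other core protein, Uqcrc1, had 315, 307 and 309 CPM in SHP-KO libraries, against 321, 344 and 321 CPM in WT libraries, a log2 fold change of -0.08 (adjusted p = 0.015). That call was lost without WT replicate 2 (adjusted p = 0.088). The Rieske iron-sulfur protein Uqcrfs1 (0.05), Uqcrq (0.01) and Uqcrb (-0.06) were not called, although Uqcrfs1 passed without SHP-KO replicate 1 (adjusted p = 0.017) and Uqcrb passed as lower without WT replicate 1 (0.014). Uqcrq, with the next highest level per length, had 345, 368 and 360.0 CPM in SHP-KO libraries, against 343, 368 and 352 CPM in WT libraries.

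The Uqcrc1 window is shown for its pair of NRF1 matches close to the start.
Uqcrc1 chr9:108936398-108936697 (plus strand): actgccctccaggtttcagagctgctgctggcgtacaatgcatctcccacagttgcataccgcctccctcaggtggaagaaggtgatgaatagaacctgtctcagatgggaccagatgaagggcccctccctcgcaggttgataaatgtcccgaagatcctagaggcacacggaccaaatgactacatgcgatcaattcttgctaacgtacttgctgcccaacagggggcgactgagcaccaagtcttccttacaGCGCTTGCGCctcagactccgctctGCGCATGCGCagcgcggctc

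Complex IV, cytochrome c oxidase, held both the second-largest rise and the largest fall among all members. Of 14 tested genes 7 rose, 3 fell and 4 did not pass, so that 71.4% were called, against 70.6% of all genes. Cox7a1, the muscle and heart type of subunit 7a (mm9 chr7:30969190-30971049), had 185, 177 and 183 CPM in SHP-KO libraries, against 102, 99.5 and 104 CPM in WT libraries, a log2 fold change of 0.83 (SE 0.039; edgeR adjusted p = 2.1e-34), or 1.78-fold. The broadly expressed type of the same subunit, Cox7a2, had 268, 245 and 256 CPM in SHP-KO libraries, against 263, 249.7 and 247 CPM in WT libraries, and did not pass (log2 fold change 0.01, adjusted p = 0.70). Per kilobase of exon, Cox7a1 stood at 497 and Cox7a2 at 339.9 in SHP-KO libraries, against 278 and 336 in WT libraries. The ratio of Cox7a1 to Cox7a2 on that scale was 1.46 ± 0.031 in SHP-KO libraries and 0.829 ± 0.032 in WT libraries (SD, n = 3 each). The smooth muscle markers given above moved in the same direction, with Acta2 at a log2 fold change of 3.02 and Des at 2.22.

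The third member of that family, Cox7a2l, which joins complexes III and IV into supercomplexes (mm9 chr17:83901257-83913673), fell. It had 69.7, 61.1 and 62.3 CPM in SHP-KO libraries, against 97.2, 98.4 and 97.7 CPM in WT libraries, a log2 fold change of -0.60 (SE 0.050; edgeR adjusted p = 2.9e-19), or 1.52-fold lower. The WT libraries lay close together and the SHP-KO libraries well below them. Other muscle, testis or lung types were scarce: Cox6a2, the muscle type of subunit 6a, had 4, 4 and 3 counts in SHP-KO libraries, against 1, 3 and 3 in WT libraries, and was not tested. Cox6b2, the testis type of subunit 6b, had 7.25, 9.08 and 6.53 CPM in SHP-KO libraries, against 9.35, 10.3 and 8.84 CPM in WT libraries. The groups overlapped, and the log2 fold change of -0.31 (adjusted p = 0.041) lost its call with DESeq2 (adjusted p = 0.14) and without WT replicate 1 (0.053), WT replicate 2 (0.12), SHP-KO replicate 1 (0.10) or SHP-KO replicate 3 (0.23). Cox4i2, Cox7b2, Cox8b and Cox8c were under the minimum of 10 counts.

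Of 7 broadly expressed partners of tissue-restricted isoforms, Ndufa4 included, 4 rose and 3 were not called. Cox6b1, which bridges the dimer, had 452, 452 and 450.1 CPM in SHP-KO libraries, against 372, 357 and 370.0 CPM in WT libraries, a log2 fold change of 0.30. Cox6a1 had 488, 510.1 and 501 CPM in SHP-KO libraries, against 420.1, 438 and 419 CPM in WT libraries, a log2 fold change of 0.23. Cox4i1, the most abundant of all members per length, had 862, 856 and 899.9 CPM in SHP-KO libraries, against 804, 796 and 822 CPM in WT libraries, a log2 fold change of 0.11 (SE 0.026; edgeR adjusted p = 9.6e-05). In these 3 genes the groups did not overlap. Cox5a and Cox5b rose by 0.25 and 0.15, and Cox7c by 0.09, a call that was lost without WT replicate 2, WT replicate 3, SHP-KO replicate 1 or SHP-KO replicate 3 (adjusted p 0.39, 0.097, 0.17 and 0.096). Cox7c lost the call with DESeq2 too (adjusted p = 0.094). Cox6c fell by 0.23 on the log2 scale. Cox7b (-0.00) and Cox8a (-0.01) were not called. Cox4nb, which fits the pattern by name only, was not called (0.19, adjusted p = 0.056), but passed without WT replicate 3 (0.011) or SHP-KO replicate 1 (0.023).

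**Figure D2:**
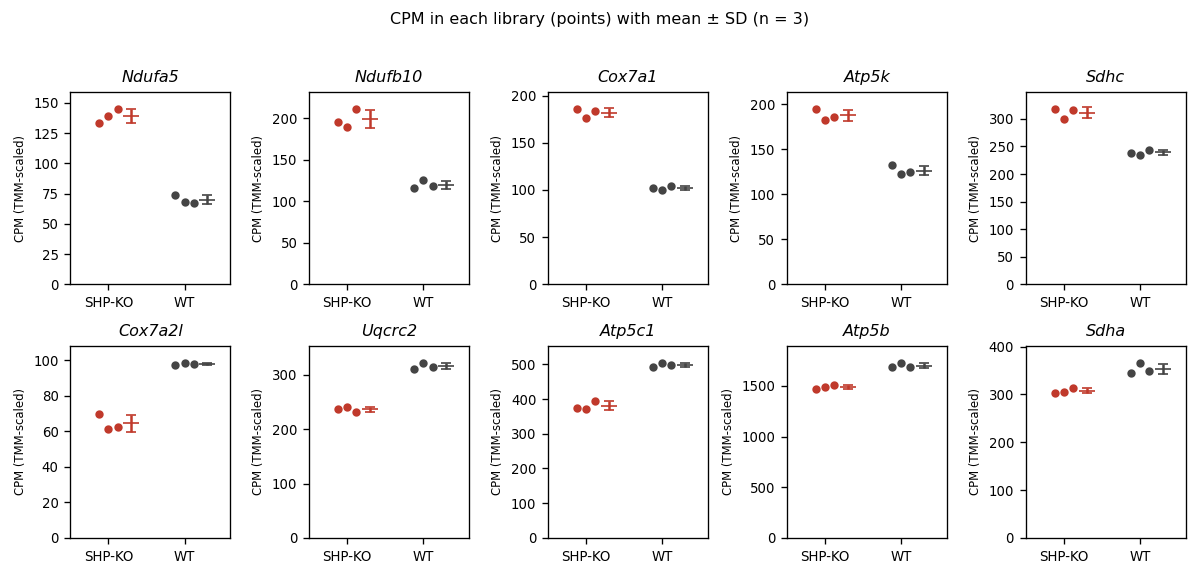
CPM of 10 members in each library is plotted as points, SHP-KO left of WT, with the mean and SD (n = 3) beside them, on axes that start at 0. Ndufa5, Ndufb10, Cox7a1, Atp5k and Sdhc lie higher in every SHP-KO library, and Cox7a2l, Uqcrc2, Atp5c1, Atp5b and Sdha lie lower in every SHP-KO library.

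Complex V is the ATP synthase. Among its 17 members by symbol, Atp5s and Atp5sl included, there were 8 that rose, 5 that fell and 4 not called. The median log2 fold change was 0.14. The share called was 76.5%, against 70.6% of all genes, with 47.1% higher, against 35.2%, and 29.4% lower, against 35.4%. In the F1 head and central stalk 3 of 5 genes fell. Atp5b, the catalytic beta subunit (mm9 chr10:127520363-127527444), had 1468, 1486 and 1508 CPM in SHP-KO libraries, against 1682, 1726 and 1689 CPM in WT libraries, a log2 fold change of -0.19 (SE 0.024; edgeR adjusted p = 1.7e-11). Atp5a1, the alpha subunit, had 1040, 1031 and 1043 CPM in SHP-KO libraries, against 1184, 1208 and 1175 CPM in WT libraries, a log2 fold change of -0.20. Atp5c1, the gamma subunit of the rotating stalk, had 375, 372 and 395 CPM in SHP-KO libraries, against 493, 504 and 498 CPM in WT libraries, a log2 fold change of -0.39 (SE 0.029; edgeR adjusted p = 2.2e-21). In all 3 genes every SHP-KO library was below every WT library. The small delta and epsilon subunits of the stalk, Atp5d and Atp5e, each rose by 0.14.

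Of the 3 genes for the proton-carrying c ring, which encode the same mature protein, 2 rose and 1 fell. Atp5g3, the most abundant, had 869.7, 846 and 832 CPM in SHP-KO libraries, against 646, 726 and 667 CPM in WT libraries, a log2 fold change of 0.32. Atp5g1 rose by 0.38. The minor gene Atp5g2 had 17.9, 16.7 and 18.4 CPM in SHP-KO libraries, against 20.3, 21.7 and 21.2 CPM in WT libraries, a log2 fold change of -0.25 (adjusted p = 0.011), and lost the call without SHP-KO replicate 2 (adjusted p = 0.065). Atp5g2 lost the call with DESeq2 too (adjusted p = 0.066). Summed per kilobase of exon, Atp5a1, Atp5b and Atp5c1 stood to the 3 c ring genes as 1.01 ± 0.030 in SHP-KO libraries and 1.46 ± 0.058 in WT libraries (SD, n = 3 each), a ratio chosen after the values were seen.

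Of 3 other membrane subunits tested 2 rose and 1 was not called. Atp5k, subunit e, which takes part in the dimers of ATP synthase (mm9 chr5:108862272-108863397), had 194, 182 and 186 CPM in SHP-KO libraries, against 132, 122 and 124 CPM in WT libraries, a log2 fold change of 0.57 (SE 0.038; edgeR adjusted p = 2.6e-24). Atp5j2, subunit f, rose by 0.34. Atp5l, subunit g, had 2.67, 2.63 and 3.32 CPM in SHP-KO libraries, against 2.26, 2.1 and 1.59 CPM in WT libraries, and was not called (log2 fold change 0.53, adjusted p = 0.056), though it passed without WT replicate 1 (0.047). Its transcript shares 69.0% of its 100-base windows with other genes, so its count is uncertain. In the peripheral stalk Atp5h rose (0.27), Atp5f1 fell (-0.17), and Atp5o (-0.05) and Atp5j (-0.06) did not pass. For Atp5h 29.5% of windows occur in other genes, and Atp5j and Atp5f1 share 16.2% and 14.1% of their exon bases with Gabpa and Wdr77. Atp5sl, an assembly factor of complex I by function despite its name, had 46.8, 50.3 and 49.5 CPM in SHP-KO libraries, against 32.6, 32.8 and 31.9 CPM in WT libraries, a log2 fold change of 0.59. Atp5s was not called (0.20, adjusted p = 0.27).

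The Atp5k window is shown because it holds matches to both motifs.
Atp5k chr5:108434350-108434649 (minus strand): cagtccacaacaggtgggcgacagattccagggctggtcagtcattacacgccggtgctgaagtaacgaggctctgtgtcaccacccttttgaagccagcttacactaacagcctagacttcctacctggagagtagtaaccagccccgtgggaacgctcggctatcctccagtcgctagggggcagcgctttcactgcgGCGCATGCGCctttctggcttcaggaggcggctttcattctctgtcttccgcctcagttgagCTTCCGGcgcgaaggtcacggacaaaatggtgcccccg

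**Figure D3:**
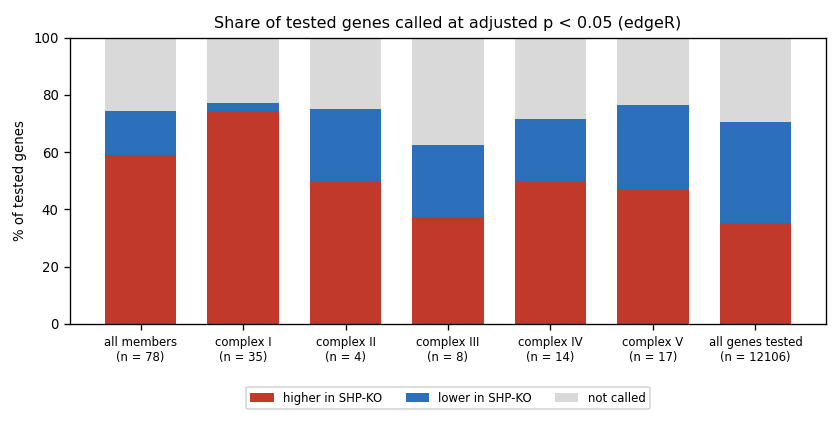
Stacked bars give the percent of tested genes that were higher (red), lower (blue) or not called (grey) in SHP-KO, for all 78 tested members, for each complex and for all 12106 genes tested. The red share is 74.3% in complex I and 35.2% over all genes, and the blue share is 29.4% in complex V.

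Summed over their members per kilobase of exon, all 5 complexes were at a higher level in every SHP-KO library than in any WT library. Complex I summed to 6398 ± 84.3 CPM per kilobase in SHP-KO libraries and 5246 ± 78.3 in WT libraries (SD, n = 3 each), a ratio of 1.22. Complex II summed to 921 ± 17.5 in SHP-KO libraries and 817 ± 6.24 in WT libraries, a ratio of 1.13. Complex III summed to 3527 ± 21.2 in SHP-KO libraries and 3390 ± 31.9 in WT libraries, a ratio of 1.04. Complex IV summed to 7152 ± 64.9 in SHP-KO libraries and 6466 ± 14.7 in WT libraries, a ratio of 1.11. Complex V summed to 6527 ± 51.4 in SHP-KO libraries and 6067 ± 86.9 in WT libraries, a ratio of 1.08. For complexes III and V this depends on dividing by length. In plain CPM, where long transcripts weigh more, complex III summed to 2379 ± 12.8 in SHP-KO libraries and 2373 ± 24.8 in WT libraries, and complex V to 6323 ± 52.0 in SHP-KO libraries and 6443 ± 101 in WT libraries. Altogether the members took 1.88% of the scaled reads in SHP-KO libraries and 1.78% in WT libraries.

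**Figure D4:**
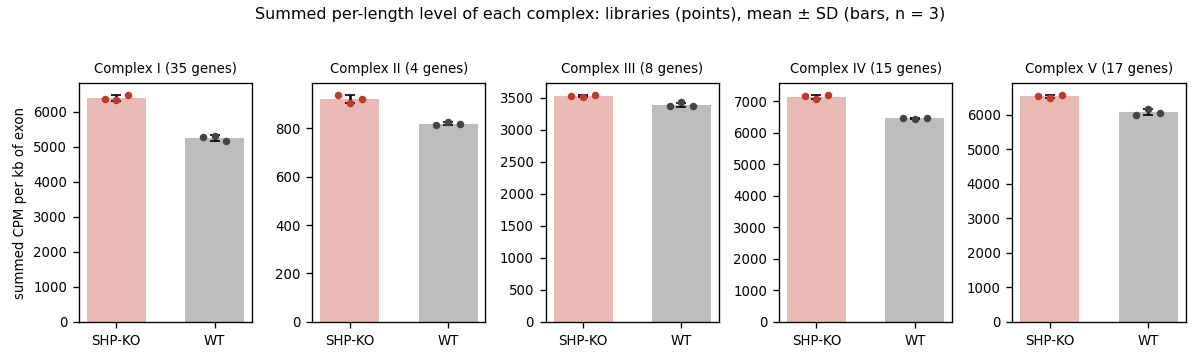
Points give the summed level of each complex in each library, in CPM per kilobase of exon, with bars for the mean and error bars for the SD (n = 3), SHP-KO left of WT. The 2 groups separate in every panel, with the largest ratio in complex I (1.22, from 6398 in SHP-KO and 5246 in WT) and the smallest ratio in complex III (1.04, from 3527 in SHP-KO and 3390 in WT).

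The members were set beside genes above a floor of level, with no upper limit, and beside genes of like length. Of the 2004 tested genes with a mean of at least 92.8 CPM, members included, 42.5% were higher and 44.4% lower in SHP-KO libraries. Their median log2 fold change was -0.0077. Of the 58 members among them 36 (62.1%) were higher and 9 (15.5%) lower. Fewer of these members were called, 77.6%, against 86.8% of the 2004 genes. Member transcripts are short, with a median exon length of 680 bases, against 2836 bases for all genes. Over the 78 members Spearman's rho between log2 fold change and exon length was -0.32, and over all 12106 genes it was 0.023; all genes share the same libraries, so these are descriptions. In the shortest 10% of all genes, without members, the median log2 fold change was -0.013, while the 55 members of that length had a median of 0.19 and the 23 longer members 0.14.

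The start-site windows of 66 of the 79 members were in the RefSeq table. The NRF1 motif occurred in 16 of them, or 24.2%, against 5.19% of 27025 genes in the table, and the ETS motif CCGGAAG also in 16, against 9.93% of all genes. The motif AAGATGGCG of YY1 occurred in 8 (12.1%), against 1.64% of all genes, and AAGGTCA, a site for estrogen-related receptors, in 7 (10.6%), against 5.38%. Both strands were searched, and in the 4 windows with both an NRF1 and an ETS match the matches did not overlap. By direction, the NRF1 motif was in 10 of 40 members that rose, 5 of 9 that fell and 1 of 17 that were not called. The ETS motif was in 10 of 40 that rose, 0 of 9 that fell and 6 of 17 not called. These counts describe letters in a window of 300 bases, without a test.

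Other nuclear genes that serve the respiratory chain were counted in textbook lists, which were drawn up with earlier results of these data known. Among subunits and partners whose symbols fall outside the pattern, Ndufab1, the acyl carrier protein of complex I, rose by 0.48 and Cyc1, cytochrome c1, by 0.10. Usmg5, a small ATP synthase subunit, fell by 0.12 on the log2 scale, and Cycs, cytochrome c, was not called (0.06, adjusted p = 0.22). Of 27 assembly factors tested 13 rose and 4 fell, with a median log2 fold change of 0.18. That was 48.1% higher and 14.8% lower, against 35.2% and 35.4% of all genes. Ndufaf4, an assembly factor of complex I, had 15.6, 16.1 and 15.8 CPM in SHP-KO libraries, against 6.35, 6.49 and 8.47 CPM in WT libraries, a log2 fold change of 1.15 (SE 0.123; edgeR adjusted p = 4.6e-14). The copper chaperone Sco1 for complex IV was among those that fell (-0.41). Of 76 mitochondrial ribosomal protein genes 23 rose and 11 fell, a smaller share called (44.7%) than over all genes, with Mrps15 at 0.86 and Mrpl50 at -0.73.

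Citrate cycle enzymes were called in both directions, 7 higher and 8 lower of 17, so that 88.2% were called, against 70.6% of all genes. Dlst and Ogdh, subunits of the 2-oxoglutarate dehydrogenase complex, rose by 0.68 and 0.58, and Cs, citrate synthase, by 0.42, whereas Suclg2, of succinyl-CoA synthetase, and Pdha1, of pyruvate dehydrogenase, had log2 fold changes of -0.74 and -0.54. Protein import genes had 8 higher and 6 lower of 23 (60.9% called), with 4 lower without WT replicate 1 and 3 without SHP-KO replicate 2. Coenzyme Q synthesis genes had 3 higher and 5 lower of 12 (66.7% called). Adck3, a kinase-like protein needed for coenzyme Q, had 4.33, 3.83 and 6.07 CPM in SHP-KO libraries, against 19.2, 17.0 and 20.7 CPM in WT libraries (log2 fold change -2.00, edgeR adjusted p = 3.4e-24). Among 7 tested carriers and uncoupling genes 2 rose and 4 fell (85.7% called). The number higher was 1 without WT replicate 1 or WT replicate 3, and 3 without WT replicate 2. Both main ADP/ATP carriers fell: Slc25a5 had 1201, 1176 and 1143 CPM in SHP-KO libraries, against 2043, 2130 and 2035 CPM in WT libraries (log2 fold change -0.82), and Slc25a4 had a log2 fold change of -1.03. Vdac2, an outer membrane channel, rose by 0.56.

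Of 14 regulators of mitochondrial biogenesis tested, 4 rose and 4 fell, so that 57.1% were called, against 70.6% of all genes. Without SHP-KO replicate 1 or SHP-KO replicate 3 only 2 were called higher. Esrra, the estrogen-related receptor alpha, had 579.7, 603 and 599 CPM in SHP-KO libraries, against 406, 409.8 and 407 CPM in WT libraries, a log2 fold change of 0.54 (SE 0.028; edgeR adjusted p = 1.3e-31). Ppargc1a, its coactivator, had 53.8, 54.9 and 52.8 CPM in SHP-KO libraries, against 33.2, 28.4 and 34.0 CPM in WT libraries, a log2 fold change of 0.75 (SE 0.068; edgeR adjusted p = 2.7e-17). Yy1 (-0.94), Tfam, the packaging and transcription factor of mitochondrial DNA (-0.49), and Gabpa (-0.27) fell. Nrf1 itself was not called (-0.14, adjusted p = 0.15).

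**Figure D5:**
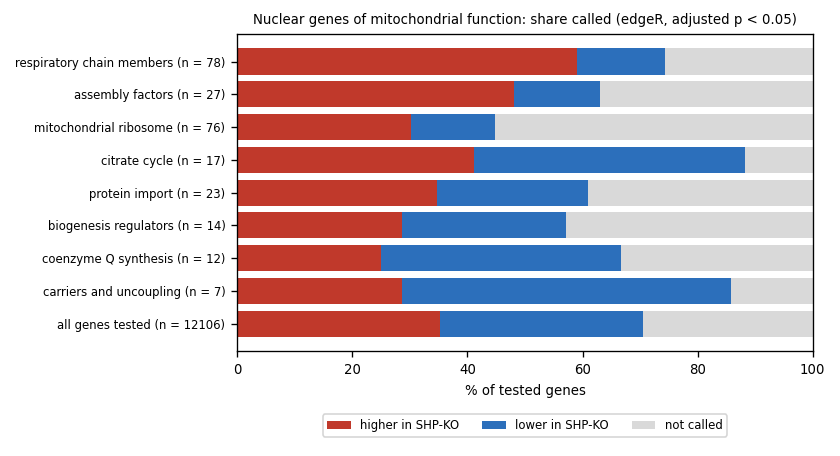
Horizontal bars give the percent of tested genes that were higher (red), lower (blue) or not called (grey) in SHP-KO, for the respiratory chain members, 7 other lists of nuclear genes for mitochondria, and all genes tested. The red share is 59.0% in the respiratory chain members, 48.1% in assembly factors and 35.2% over all genes.

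The authors' deposited table of the same comparison, whose adjusted p-values are larger, lists 78 members and 34.6% of its 12939 genes pass its FDR of 0.05. Passing members in the authors' deposited table were 4: Ndufa5 (log2 fold change 0.98, FDR 0.00034), Cox7a1 (0.82, FDR 0.0031), Ndufb10 (0.71, FDR 0.011) and Cox7a2l (-0.62, FDR 0.032). An unadjusted p under 0.05 was listed in the authors' deposited table for 9 of 78 members. Over all its genes it was listed for 5524 of 12939, a larger share.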

How the data were processed

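Gene counts of 6 libraries were deposited by the authors as whole-number counts per gene with no normalization. Per the file headers, featureCounts 1.5.2 assigned reads to exons by gene without strand and without reads over more than 1 gene or mapped to several places. Per the submitters' processing notes, bcl2fastq 2.17.1.14, Trimmomatic 0.38, FastQC 0.11.5, STAR 2.6.0c, edgeR and the build mm9 were used, and per the labels reads of 100 bases came from an Illumina HiSeq2000. The authors' deposited comparison table gives log2 fold changes and log2 CPM, and it gives p-values and FDR. Without strand, overlapping and antisense genes cannot be told apart.

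From the counts, edgeR 4.0.16 (R 4.3.3) fitted genotype to genes passing filterByExpr with a minimum count of 10, after TMM scaling. The robust quasi-likelihood test was adjusted over 12106 genes. CPM are TMM-scaled and compare libraries within a gene. Levels between genes are CPM per kilobase of exon. Precision follows from 150 to 103346 summed counts per tested member (median 9791). Libraries of a group differed by more than sampling noise, so none was counted as a copy of another. The fit was also run on simulated counts, which cannot show whether the spread assumed holds for these libraries. Alternatives were DESeq2 1.42.0, limma-voom (limma 3.58.1), other scalings and filters, an assumed spread, a minimum change, a replicate term and leaving out each library. Members, lists and tests were chosen with earlier results of these data known. Named with values in every library were, per complex, the 3 largest changes without overlap, the smallest p, the 2 highest levels per length in WT, tissue-restricted isoforms with their partners, and Sdh genes; other members and the ratios were added after their values were seen.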

Additional observations from a re-analysis of the deposited data

How the results depend on the processing

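Over all members the test gave 46 higher and 12 lower in SHP-KO. It gave 46 and 12 with DESeq2's size factors, 44 and 16 without scaling, 45 and 16 with a 1 CPM filter, 39 and 18 with no filter, 44 and 10 with DESeq2, 46 and 12 with limma-voom, and 43 to 47 higher and 11 to 13 lower when each library was left out. Of all genes, 70.5% were called with DESeq2's size factors, 71.0% without scaling, 69.9% with the 1 CPM filter and 54.3% with no filter. The share called over all genes was 66.8% to 68.7% when each library was left out. With an assumed coefficient of variation of 0.2 the test gave 6 members higher and 1 lower: 3 and 0 in complex I, 0 and 0 in complexes II and III, 1 and 1 in complex IV, and 2 and 0 in complex V. Against a minimum change of 25% it gave 14 and 3: 9 and 0 in complex I, 1 and 0 in II, 0 and 1 in III, 1 and 1 in IV, and 3 and 1 in V. Atp5sl, a match by name only, was among the genes higher in complex V with both settings. Complex I had 2 lower without scaling, with the 1 CPM filter or with no filter, and complex II had 2 lower with no filter. Leaving out libraries gave 1 to 2 lower in complex I and 1 to 3 lower in complex III. The median of complex III turned to -0.0032 without scaling and -0.026 with no filter, settings that moved the median of all genes to -0.05 and -0.073. Without scaling, the log2 ratio of summed level was 0.12 for all members, 0.25 for complex I, 0.13 for II, 0.019 for III, 0.11 for IV and 0.067 for V. These settings change the assumed spread, the scaling or the genes tested; beyond that the cause was not tested.

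Replicate numbers did not pair the libraries: deviations of same-numbered libraries correlated at -0.0064 to 0.021, and not every library correlated best with its own number. With the replicate block 47 members were higher and 12 lower. Low counts limit Atp5l, Atp5s, Cox6b2 and Cox6a2.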

Other observations

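BC002163, the gene that shares the exons of Ndufs5 on chromosome 4 (mm9), has a further interval of 500 bases at chr16:42955693-42956192. It had 284, 325 and 341 counts in SHP-KO libraries, against 17, 13 and 16 in WT libraries, or 36.9 ± 1.89 CPM in SHP-KO and 1.20 ± 0.052 CPM in WT (SD, n = 3 each), a log2 fold change of 4.93 (edgeR adjusted p = 3.7e-50). All bases of its 3 intervals on chromosome 4 lie in Ndufs5, and only 25 bases of Ndufs5 lie outside it. As reads over more than 1 gene were not assigned, the counts of BC002163 can come only from its interval on chr16.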
